A study of Mus musculus with 6 samples.

Results

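Actins and the small proteins that bind them were followed in mammary gland RNA of mice that overexpress luteinizing hormone (LH) and of wild type mice. The genes are Actb, Actg1, Acta2, Actg2, Cotl1, Cfl1, Pfn1, Tmsb4x, Tmsb10 and Tagln, 10 in all. Of the 12488 probe sets on the array, 11 were annotated to one of these genes alone, 9 genes having 1 probe set and Actb having 2. The array also carries 6 control probe sets made against beta-actin, so 17 probe sets are described. The genes were chosen by earlier results of the same 6 arrays, in which the differences of Cotl1, Acta2 and the Actb probe sets between the groups had been seen. Their differences between groups are therefore a description, given without p-values.

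The mice of both groups were virgin F1 CF-1/FVB animals aged 16 weeks, and the tissue was the thoracic mammary gland. Wild type glands and glands of transgenic (LH-overexpressing) mice were each measured on 3 arrays. Each array was hybridised with pooled RNA of 3 mice, 9 mice per group. The labels do not name the promoter that drives the transgene, and a whole gland holds fat, vessels, immune cells and epithelium together. Fewer cells of a type and less RNA per cell cannot be told apart in such samples.

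Actins are the subunits of the thin filaments of the cell. Beta-actin and gamma-actin are made in nearly every cell, while alpha and gamma smooth muscle actin are made in smooth muscle. Myoepithelial cells, which squeeze milk out of the alveoli, also make smooth muscle actin. Free actin is held by thymosins and by profilin, cofilin takes old filaments apart, and other proteins bundle, cap or stabilise them. Actb is often used as a reference gene on the assumption that its level is constant. The actins are closely alike as proteins and have processed copies in the genome, so a probe set of one actin may hold signal of another. Which actin transcripts the probes match was not checked, and these data do not separate them.

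All 12 luminal epithelial markers of the gland and all 10 adipocyte markers with a probe set passed the filter on dim probe sets (a mean signal of at least 336). In the myoepithelial list, 7 of 10 markers with a probe set passed, and Dsc3 had under 79.7 on every array. Skeletal muscle markers summed to 124610 to 142354 on the wild type arrays, to 29024 and 33762 on LH transgenic pools 1 and 2, and to 112368 on LH transgenic pool 3. The trimmed mean signal was 1500.8 or 1500.9 on every array. Pools are numbered for naming only, and the spread between pools holds differences between mice as well as technical error. The number of arrays limits the precision.

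Of the 11 gene probe sets, all passed the filter. Cotl1 passed only through its LH transgenic level, as its wild type mean lay below the filter. With limma, 6 were called higher and 1 lower in LH transgenic glands at a Benjamini-Hochberg adjusted p under 0.05, beside 10.5% and 10.8% of 7455 probe sets tested (21.3% either way). The groups did not overlap for 7 of the 11, beside 40.4% of all probe sets tested. Nothing is read from these counts, since the contrast was in view when the genes were chosen. The median log2 difference was 0.47 over the 11 and 0.02 over all probe sets tested, on the log2(signal + 79.7) scale, where all differences here are LH transgenic minus wild type.

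Actb, the cytoplasmic beta-actin, gave a different answer with each kind of probe set. The control probe sets lie toward the 5′ end, the middle and the 3′ end of the transcript. The 3′ control had 28940.2, 46607.7 and 45371.3 on the wild type arrays and 77116.4, 85645.8 and 80948.6 on the LH transgenic arrays. It was 40306 ± 9863 and 81237 ± 4272 (mean ± SD, n = 3 pools), a log2 difference of 1.04 (SE 0.23), and 0.66 after quantile normalization. The groups did not overlap, and wild type pool 1 was the lowest of the 6.

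The middle control had 12729.9, 24659.6 and 27229.0 in wild type and 67049.4, 61013.2 and 70055.6 in LH transgenic glands, a log2 difference of 1.68 (SE 0.35). The 5′ control had 12950.2, 21825.9 and 22487.3 against 60563.7, 41054.3 and 56250.6, a difference of 1.48 (SE 0.31). Wild type pool 1 was again the lowest for both, and neither showed overlap. The means of the LH transgenic group were 2.02, 3.07 and 2.76 times those of wild type for the 3′, middle and 5′ control.

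The probe set 101578_f_at shares its source sequence record with the controls, by the platform annotation and the names of the controls, and went the other way. It had 2139.2, 4078.5 and 2960.8 in wild type and 240.3, 1075.2 and 219.4 in LH transgenic glands. Its log2 difference was -2.66 (SE 0.46), and -3.30 without LH transgenic pool 2. The groups did not overlap, but LH transgenic pool 2 lay well above pools 1 and 3. The mean of the LH transgenic group was 0.167 times that of wild type. In the naming of these arrays the letter f marks a probe set whose probes match several members of a sequence family.

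The other Actb probe set, 95705_s_at, had 614.3, 1660.8 and 609.9 in wild type and 853.6, 2149.4 and 707.4 in LH transgenic glands. Its groups overlapped, with a log2 difference of 0.33 (SE 0.44), and leaving out 1 array gave -0.14 (without LH transgenic pool 2) to 0.77 (without wild type pool 2). Pool 2 of each group stood well above the other pools of its group, as it also had the highest value of its group for 101578_f_at. The labels do not pair the pools, and since the numbers are for naming only, the shared number 2 carries no meaning. Why these arrays stood higher was not tested.

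**Figure D1:**
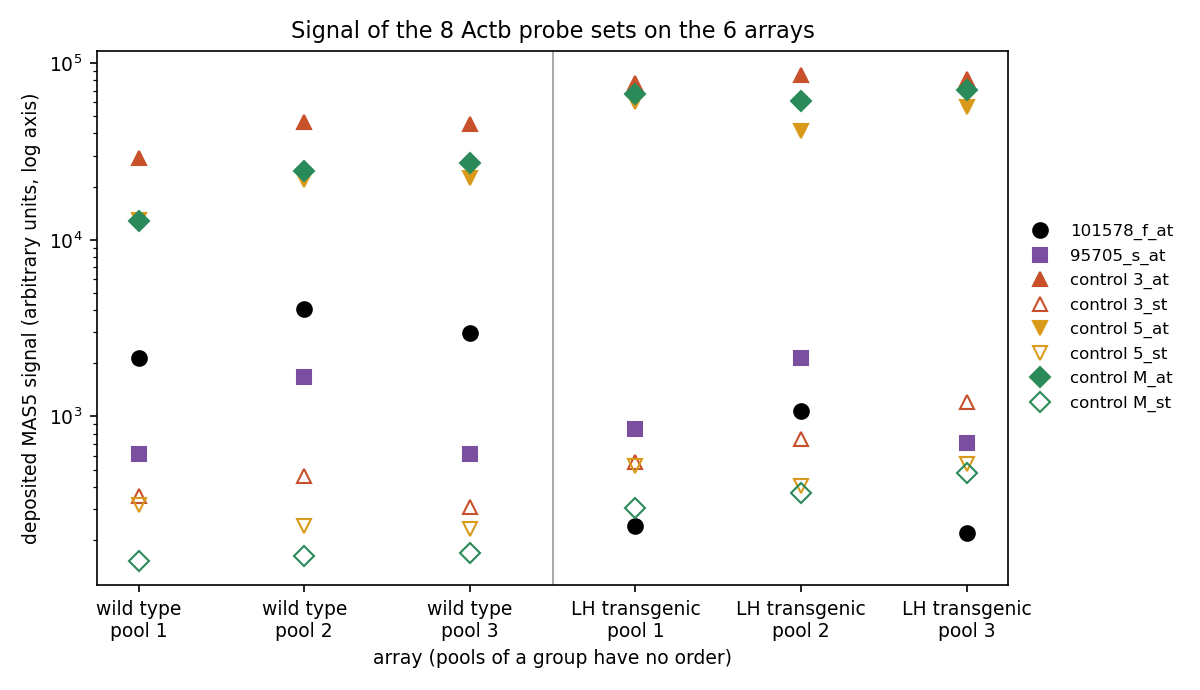
Deposited signal (log axis) of the 8 Actb probe sets on each of the 6 arrays, with filled symbols for the probe sets ending in _at and open symbols for the control probe sets ending in _st. The 3 controls ending in _at lie higher on all LH transgenic arrays than on all wild type arrays, 101578_f_at lies lower (219.4 to 1075.2 against 2139.2 to 4078.5), and 95705_s_at overlaps.

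The 3 control probe sets ending in _st are of the opposite strand. The 3′ one had 355.4, 461.4 and 308.6 against 553.3, 748.5 and 1212.4, the middle one 151.7, 162.1 and 168.5 against 303.9, 367.5 and 479.2, and the 5′ one 313.4, 239.8 and 229.7 against 525.6, 404.8 and 534.4. These were higher in LH transgenic glands on every array, by 0.96, 0.93 and 0.74 on the log2 scale. Their signals were low, with wild type means of 375, 161 and 261, so the differences depended on the pseudocount. They were 0.70, 0.54 and 0.47 with a pseudocount of 324.3, and 1.10, 1.23 and 0.91 with none and a floor of 16.8. On the scale of the bacterial controls they were 0.365, 0.41 and 0.18.

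Among 881 genes with at least 2 tested probe sets, the difference between the highest and the lowest log2 difference had a median of 0.32 and a 95th percentile of 1.23. For the tested probe sets of Actb it was 2.99, the second largest after Ctse, an aspartic protease (3.67). With the 3 controls ending in _at included it was 4.35.

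The skeletal muscle actin gene Acta1 encodes a relative of beta-actin, and whole thoracic glands can hold its RNA with attached muscle. It had 28133.1, 33832.4 and 28605.6 in wild type and 7687.9, 9405.9 and 32526.4 in LH transgenic glands. LH transgenic pool 3, at the wild type level for Acta1, had 219.4 for 101578_f_at, the lowest value of all arrays. LH transgenic pool 2, low for Acta1, had the highest value of its group for 101578_f_at. The part of Acta1 in the values of 101578_f_at was not tested. The cardiac actin gene Actc1, in its probe set 101029_f_at, had 2183.3, 3183.8 and 3679.5 against 2956.4, 2806.6 and 4012.7, a difference of 0.12 (limma adjusted p 0.721).

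The balance of the 3′ and 5′ controls depends on transcript length and on the integrity of the RNA. For Actb the log2 difference between the 3′ and 5′ controls was 1.16, 1.09 and 1.01 on the wild type arrays and 0.35, 1.06 and 0.53 on the LH transgenic arrays. LH transgenic pool 2 lay with the wild type arrays. For Gapdh, a glycolytic enzyme whose controls were not used in the choice of genes, it was 0.20, 0.23 and 0.45 against 0.07, 0.50 and 0.10. The Gapdh values overlapped (difference -0.07, two-sided exact permutation p = 0.6, where 0.1 is the smallest that 3 against 3 arrays allow).

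Actg1, the cytoplasmic gamma-actin, had 37837.2, 43397.0 and 42397.3 in wild type and 60778.4, 55027.0 and 55297.3 in LH transgenic glands. Its log2 difference was 0.47 (SE 0.11), without overlap, and 0.10 after quantile normalization. Wild type pool 1 was the lowest array, as for the Actb controls, and the mean was 1.38 times the wild type mean.

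Acta2, alpha smooth muscle actin of vessels and myoepithelium, had 7268.6, 9500.7 and 9930.6 against 13353.0, 13433.8 and 15255.8. The groups did not overlap, and the difference was 0.66 (SE 0.14). Actg2, gamma smooth muscle actin, had 933.3, 1231.8 and 1639.9 against 1656.7, 1684.1 and 1563.0. Its wild type pools were spread over a wider range than the whole LH transgenic group, wild type pool 3 lay within that group, and the difference was 0.38 (SE 0.19), ranging from 0.19 without wild type pool 1 to 0.57 without wild type pool 3. The probe set of Actg2 is also of the family type.

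Tagln, transgelin, which binds actin filaments in smooth muscle, had 6854.1, 7418.9 and 9489.1 against 8209.2, 8545.3 and 7551.1, a difference of 0.04 (SE 0.14) with overlap, ranging from -0.05 without wild type pool 1 to 0.18 without wild type pool 3. Acta2 and Tagln, both used as smooth muscle markers, therefore stood apart in size. Markers of vascular smooth muscle and pericytes moved in the same comparison. Of 6 tested, 5 were called lower by limma and none higher (0 higher also at an unadjusted p under 0.05). The marker not called was Myh11 (0.19, limma adjusted p 0.327), which is also in the smooth muscle and contractile list below. The marker list summed to 17675 to 19960 in wild type and 11758 to 13877 in LH transgenic glands, with Rgs4 under 79.7 on every array. Of 7 myoepithelial markers 1 was called higher and 2 lower, with sums of 7048 to 7948 and 6554 to 7179. The part of these cell types in the values of Acta2, Actg2 and Tagln was not tested.

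The promoters of actin genes are known for CArG boxes, the sites bound by serum response factor. They are shown here because Actg1 and Acta2 differed in the same direction. On the deposited scale 10 of the 11 gene probe sets had a difference above 0, so this direction is not particular to Actg1 and Acta2. RefSeq promoters of the GRCm38.p6 build, from 250 bases before to 50 after a gene's start, were found for 6 of the 10 genes, as 8 promoters, and not for Actb, Actg2, Cotl1 and Tagln. A CArG box, which reads as one on both strands, was present in 1 of the 8 promoters, that of Actg1, and in 1.63% of all 32851 promoters. Allowing 1 mismatch, 21.1% of all promoters held one, and those of Actg1, Acta2 and Cfl1 among the 6 genes. Capitals mark the box, which starts 90 bases before the gene's start in Actg1 (chr11:120348566-120348595, minus strand) and 84 bases before it in Acta2 (chr19:34255438-34255467, minus strand), where position 3 of the box is the mismatch. Of the other matches with 1 mismatch, not shown, 1 starts 34 bases before the start of Acta2 and 1 starts 165 bases before that of Cfl1.
Actg1: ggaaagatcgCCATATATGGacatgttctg
Acta2: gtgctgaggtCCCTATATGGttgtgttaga
These are matches of letters and were not measured as binding sites.

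Cotl1 is a small protein that binds actin filaments. It had 322.9, 236.6 and 221.2 in wild type and 1507.8, 1480.8 and 1010.2 in LH transgenic glands. The lowest LH transgenic pool was above the highest wild type pool, and the log2 difference was 2.05 (SE 0.21), with the LH transgenic mean at 5.12 times the wild type mean. Because the wild type values are low, the difference depended on the pseudocount. It was 2.35 with none and a floor of 16.8, 1.49 with a pseudocount of 324.3, and 1.65 with the skeletal muscle level of each array as a covariate.

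Cfl1, cofilin, which severs old filaments, had 11320.7, 12856.7 and 12769.0 against 20042.3, 20687.5 and 15849.2. The groups did not overlap, LH transgenic pool 3 was the lowest of its group as for Cotl1, and the difference was 0.60 (SE 0.13), or 0.35 with the skeletal muscle covariate. Pfn1, profilin, which loads actin subunits onto growing ends, had 626.7, 523.8 and 615.8 against 983.5, 1007.2 and 928.8. Its groups were well separated, with a difference of 0.66 (SE 0.15).

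The thymosins hold free actin subunits. Tmsb4x had 21447.7, 27582.4 and 25310.6 against 33978.1, 33405.8 and 34969.5, a difference of 0.47 (SE 0.12) without overlap, and 0.29 after quantile normalization. Tmsb10 had 20934.3, 24955.4 and 23375.7 against 27428.3, 31915.7 and 22466.2, a difference of 0.23 (SE 0.15). It was 0.05 after quantile normalization, -0.03 with the skeletal muscle covariate, 0.11 without LH transgenic pool 2 and 0.36 without pool 3 of that group. LH transgenic pool 3 lay within the wild type range for Tmsb10, whereas for Tmsb4x it was the highest of all arrays.

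**Figure D2:**
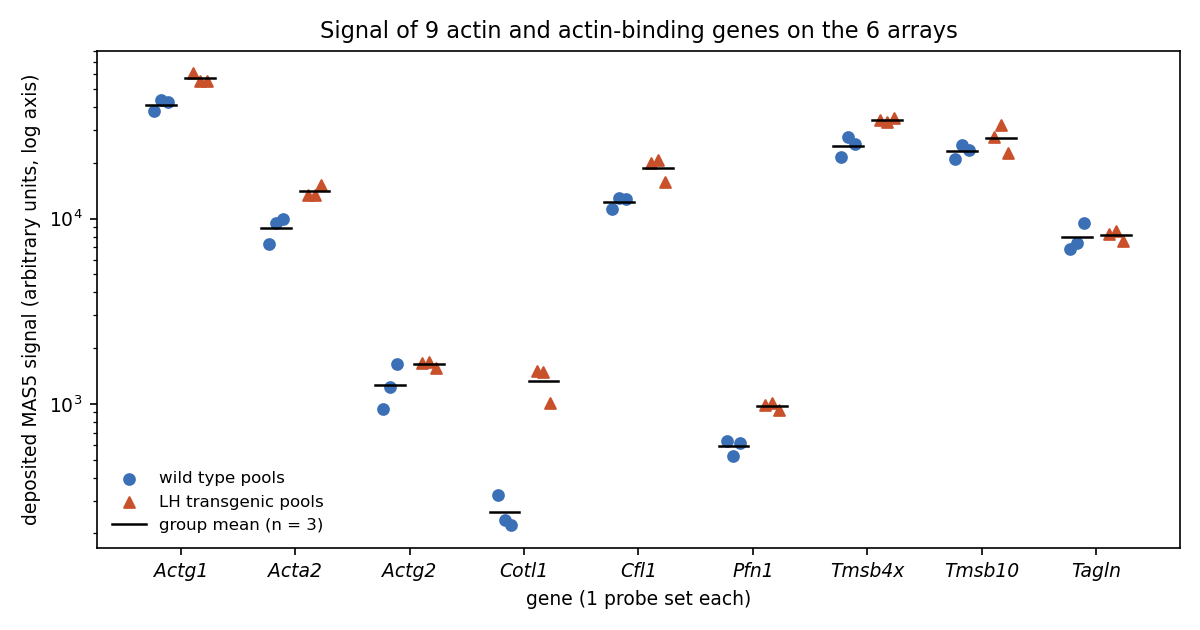
Deposited signal (log axis) of the 9 genes with 1 probe set, with 3 wild type pools (circles), 3 LH transgenic pools (triangles) and the mean of each group (line). Cotl1 shows the widest gap between groups, and the groups overlap for Actg2, Tmsb10 and Tagln.

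Leukocytes are cells rich in Cotl1 and Tmsb4x. Of 18 leukocyte markers tested, 5 were called higher by limma, none lower and 13 not (7 and 0 at an unadjusted p under 0.05), beside 10.0% of all genes called higher and 11.7% lower. Their median log2 difference was 0.33, and -0.34 on the scale of the bacterial controls. The 5 called were Lyz2, Cd14, Ctss, C1qa and Mpeg1. Of those not called, Ptprc had 0.10, Cd53 -0.17 and Thy1 -0.65, while Cd68 had 0.41 and Cd79a 0.54. The list summed to 55824, 72438 and 60646 in wild type and 103208, 104922 and 86309 in LH transgenic glands. Bright genes weigh most in this sum. LH transgenic pool 3 was the lowest of its group for this sum, for the sum of luminal epithelial markers and for Cotl1 and Cfl1, but the highest for Tmsb4x.  Luminal epithelial markers summed higher on the deposited scale (79908 to 87879 in wild type, 112350 to 131277 in LH transgenic glands, 5 of 12 called higher and 2 lower), with a median log2 difference of 0.54, and -0.14 on the scale of the bacterial controls. Adipocyte markers summed lower (167866 to 195199 against 82178 to 94297, 9 of 10 called lower), as did endothelial markers (32961 to 38933 against 15242 to 18201, 8 of 10 called lower). Their part in the differences of Cotl1, Cfl1, Pfn1 and the thymosins was not tested.

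Over the 6 arrays, the 9 genes other than Actb correlated with one another at a Pearson r of 0.11 to 0.98, with a median of 0.79 over 36 pairs. Acta2 and Tmsb4x (0.98), Cotl1 and Pfn1 (0.98) and Actg1 and Tmsb4x (0.96) were closest. Tagln and Cotl1 had the lowest value. The Actb probe set 101578_f_at had -0.87 with Pfn1 and -0.84 with Actg1, and 0.18 with the other Actb probe set. These values describe 6 arrays that share the contrast between groups.

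The probe sets most like the mean of the 3 Actb controls over the 6 arrays were those of Znrf1 (r = 0.99), Pcsk7, Adh7, Ammecr1l and Acta2 (each also 0.99). Those most like Cotl1 were Psmb4 (r = 0.9986), Hsd17b11 (0.9982), Gclm (0.9961), Pgk1 (0.9934) and Mtx1 (0.9932). Of the 10 genes, Acta2 stood among the 5 closest to the Actb controls and none among the 5 closest to Cotl1. These were picked as the highest values among all tested probe sets with 1 gene. The 6 arrays share the contrast between groups, so nothing is read from the size of r or from these ranks.

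The direction of most of the differences rested on the scale. The deposited values set the trimmed mean of every array equal, whereas the 9 bacterial control probe sets were brighter on the LH transgenic arrays. Their brightness relative to the mean of all arrays was 0.70, 0.92 and 0.76 in wild type and 1.08, 1.48 and 1.28 in LH transgenic glands. With these controls as the scale, the median of all probe sets tested was -0.62. Of the 11 gene probe sets, Cotl1 (1.45) and Pfn1 (0.03) were then above 0. Actg1 (-0.22), Acta2 (-0.03), Cfl1 (-0.08) and Tmsb4x (-0.22) lay below it, while the 3 Actb controls had 0.35, 0.79 and 0.996 for the 3′, 5′ and middle probe set. The median of the 11 was -0.22. The probe set 101578_f_at had -3.28.

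**Figure D3:**
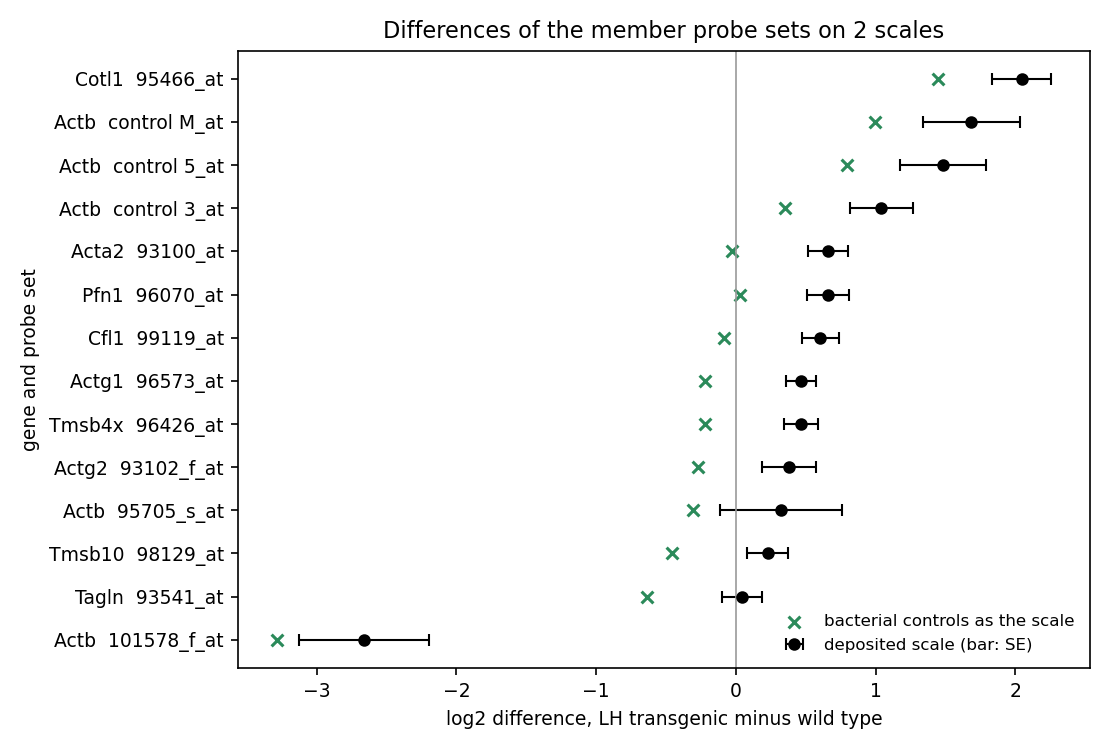
Log2 difference between LH transgenic and wild type glands for 14 probe sets, on the deposited scale (circles, bar for SE) and on the scale of the bacterial controls (crosses). Every cross lies to the left of its circle, and those of Cotl1, Pfn1 and the 3 Actb controls lie above 0.

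Genes of the same machinery that are not among the 10 were taken as 4 lists with 87 genes tested. Of these, 8 rose and 11 fell by limma over 5732 genes, of which 10.0% rose and 11.7% fell, so the lists together lay near the shares of all genes. The medians of the lists were 0.20 (nucleation and branching), 0.17 (turnover), -0.09 (crosslinking) and 0.06 (smooth muscle), beside 0.01 for all genes. On the scale of the bacterial controls they were -0.47, -0.51, -0.77 and -0.63, and no listed gene was called higher in the first 3 lists, so each rise below is relative to the trimmed mean.

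Nucleation and branching, by the Arp2/3 complex and its activators, starts new filaments. Of 19 genes tested 1 rose and none fell (6 and 0 at an unadjusted p under 0.05). Arpc5, a subunit of the Arp2/3 complex, rose from 1433 ± 52.0 to 2553 ± 241 (log2 0.80, SE 0.13, limma adjusted p 0.00323), and had 0.64 with the skeletal muscle covariate (limma adjusted p 0.0579). Leaving out pool 2 of either group gave 2 higher.

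Of 20 genes of turnover, capping and severing tested, 3 rose and 3 fell, and 14 were not called. Limk1, the kinase that switches cofilin off, rose from 1685 ± 326 to 3487 ± 683 (log2 1.01, SE 0.18, limma adjusted p 0.0047), but its second probe set had 0.17 and was not called. With the skeletal muscle covariate Limk1 had 0.97 (limma adjusted p 0.0659). Twf2, a twinfilin that binds subunits, rose by 0.67 (SE 0.15, limma adjusted p 0.012), and Dstn, a relative of cofilin, by 0.34 (SE 0.10, limma adjusted p 0.0382), a call lost under 12 of 17 other settings. Gsn, gelsolin, which severs and caps filaments, fell from 46224 ± 6907 to 26097 ± 1118 (log2 -0.81, SE 0.13, limma adjusted p 0.00287). Coro1c (-0.77) and Add1 (-0.55), a coronin and an adducin, fell as well. With the skeletal muscle covariate the calls of Twf2 (0.77, limma adjusted p 0.0586), Coro1c (-0.66, limma adjusted p 0.0545) and Add1 (-0.45, limma adjusted p 0.126) were lost. Twf2 (0.605, limma adjusted p 0.0526) and Add1 (-0.51, limma adjusted p 0.0517) also lost theirs without wild type pool 3, where 1 gene of the list rose.

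Crosslinking and membrane linkage held 31 tested genes, of which 4 rose and 7 fell. Marcksl1, a membrane-bound actin binder, rose from 4453 ± 581 to 9642 ± 447 (log2 1.11, SE 0.13, limma adjusted p 0.000764). Lcp1, the plastin of leukocytes, rose from 4235 ± 455 to 8214 ± 309 (log2 0.95, SE 0.13), and Ezr, ezrin of epithelial microvilli, by 0.68 (SE 0.14). Dmtn, dematin, which bundles filaments, fell from 1732 ± 249 to 356.6 ± 307.0 (log2 -2.27, SE 0.40, limma adjusted p 0.00432). Anxa2, an annexin that links actin to membranes, fell from 24626 ± 3282 to 10934 ± 463 (log2 -1.16, SE 0.13), and Ablim1 by 0.85 on the log2 scale (SE 0.16), or -0.79 with the skeletal muscle covariate (limma adjusted p 0.0752). Flna and Zyx had under 79.7 on every array, and without wild type pool 1, 4 genes fell.

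Smooth muscle and contractile genes had 1 of 17 lower and none higher by limma (4 and 1 at an unadjusted p under 0.05). Tagln2, a relative of transgelin made in many cell types, fell from 8227 ± 1194 to 5366 ± 357 (log2 -0.60, SE 0.14, limma adjusted p 0.0129). It had -0.72 with the skeletal muscle covariate (limma adjusted p 0.0545) and -0.49 without wild type pool 3 (limma adjusted p 0.0532). Myh11, the smooth muscle myosin, and Cnn1, calponin, were named after their values were seen. They had differences of 0.19 (limma adjusted p 0.327) and 0.50 (limma adjusted p 0.0569), beside 0.66 for Acta2. Others of the list were not called either, among them Des (-0.73), Tpm2 (-0.515) and Tpm4 (-0.44) below 0. Smtn (0.295), Cnn3 (0.26) and Mrtfa (0.19) lay above it. LH transgenic pool 3 was the highest of its group for Des (669.8) and Tpm2 (2825.7), as for the sum of skeletal muscle markers. The part of skeletal muscle in their values was not tested. The median of the list was 0.06, so its genes shared no direction with Acta2. Without wild type pool 3 none fell. Without LH transgenic pool 3, 1 rose and 3 fell.

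**Figure D4:**
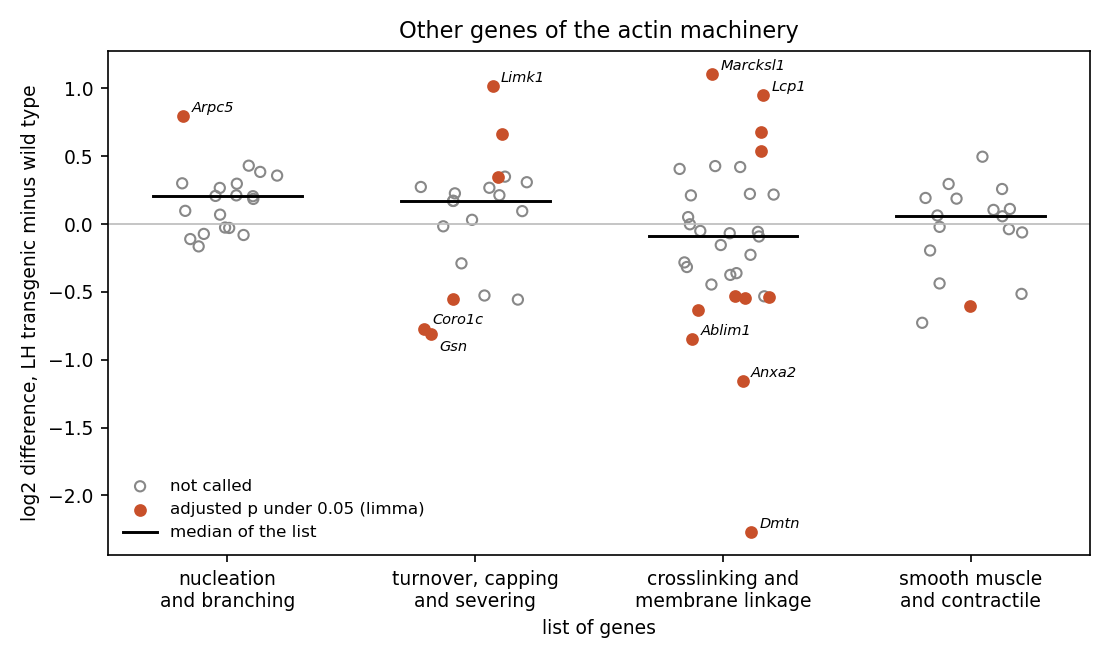
Log2 difference between LH transgenic and wild type glands for each tested gene of the 4 lists, with filled points for genes at a limma adjusted p under 0.05, open points for the others and a line at the median of each list. Dmtn (-2.27) and Anxa2 (-1.16) lie lowest, Marcksl1 (1.11) and Limk1 (1.01) highest, and the list medians run from -0.09 to 0.20.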

How the data were processed

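The deposited values are linear signal intensities, one for each probe set on each array, and the submitters' processing notes name MAS5. Its version is not given in the sources used here, nor is a genome build. Signals were turned into log2(signal + 79.7), with 79.7 the 20th percentile of all values, so differences of dim probe sets are understated. Non-control probe sets with a mean of at least 336 (40th percentile) were tested, 7455 in all, with limma 3.58.1 in R 4.3.3 (lmFit, eBayes with a trend, two-sided, Benjamini-Hochberg). For gene lists each gene was taken at its brightest tested probe set, with adjustment over 5732 genes. The 66 control probe sets were outside the fit, and the SE of the beta-actin controls came from the pooled SD of their own values. Names came from the platform annotation, only where it gave 1 gene (10833 probe sets). The members and lists were chosen with earlier results of these data known. Named were all members and, per list, the 3 called genes with the largest difference in each direction. A simulated table with known changes was used to test the fit. Nothing in the labels pairs the pools or names a batch.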

Additional observations from a re-analysis of the deposited data

How the results depend on the processing

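Other settings were quantile normalization, median centring, bacterial controls as the scale, 2 other pseudocounts, no filter or a stricter one (minimum mean 933), an eBayes fit with no trend or a robust one, skeletal muscle level as covariate, genes taken as the mean of their probe sets, and leaving out each array. No paired analysis was possible because the groups share no replicate numbers in the labels. Of 215 member values under other settings, 184 moved by less than 1 SD between replicates, 27 moved further and 4 called ones changed sign, all 4 with the bacterial controls as the scale: Actg1 (-0.22), Acta2 (-0.025), Cfl1 (-0.083) and Tmsb4x (-0.22). There Twf2 (-0.001) and Dstn (-0.34) changed sign too, 4049 probe sets and 3292 genes were called against 1586 and 1242, and the genes called higher and lower were 0 and 7 (nucleation), 0 and 9 (turnover), 0 and 21 (crosslinking), and 11 lower (smooth muscle). With skeletal muscle level as covariate 681 probe sets and 561 genes were called. The lists then had 0 higher (nucleation), 0 higher and 1 lower (turnover), 2 lower (crosslinking) and 0 lower (smooth muscle), with fewer residual degrees of freedom. The stricter filter called 1 smooth muscle gene higher. Leaving out 1 array gave 941 to 1641 probe sets and 730 to 1307 genes, lowest without wild type pool 3 both times (1056 probe sets without wild type pool 1). The lists then had 1 to 2 higher (nucleation), 1 to 3 higher and 2 to 4 lower (turnover), 3 to 5 higher and 4 to 9 lower (crosslinking), and 0 to 1 higher and 0 to 3 lower (smooth muscle). The Gapdh difference between ends ranged from -0.206 to 0.01, being 0.01 without wild type pool 3 and 0.007 without LH transgenic pool 1. Other causes were not tested. Anxa2, Gsn and Dmtn kept their calls under all 17 settings.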

Other observations

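The arrays also carry control probe sets of other genes, and among these Pcx differed most along the transcript. Pcx, pyruvate carboxylase of fat and liver, had a 3′ control of 12062.3, 11611.3 and 12077.1 in wild type and 6240.6, 6051.2 and 2899.0 in LH transgenic glands (log2 -1.30), while its 5′ control had 356.0, 710.0 and 409.6 against 1549.5, 757.5 and 831.7 (log2 0.96). The middle controls of Pcx, MA and MB, had 0.49 and -1.06. The 3 Gapdh controls differed by 0.22, 0.09 and 0.29 for the 3′, middle and 5′ probe set. Tfrc, the transferrin receptor, had a 3′ control of 264.2, 281.5 and 221.1 against 857.3, 383.1 and 748.9 (log2 1.09). Its 5′ and middle controls had -0.19 and 0.37 but were dim, with wild type means of 112 and 15.2.

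Lasp1, a LIM protein of the crosslinking list, was singled out after its values were seen. Its brighter probe set had a log2 difference of -0.05, and a second one had 1.96 and was called higher by limma, so the list counted it as not called. Vcl and Diaph1 held the same disagreement downward. Their brightest probe sets had -0.36 and 0.10 and were not called, while another of each had -0.94 and -0.66 and was called lower.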
